A study of Mus musculus with 18 samples.

Results

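Doxorubicin-treated smooth muscle cells (Dox, 3 libraries) were compared with untreated cells of the same line (Blank, 3 libraries), 6 of the 18 RNA-sequencing libraries of the series. The libraries were taken by their titles, written here as Dox_1, Dox_2 and Dox_3 against Blank_1, Blank_2 and Blank_4, and no measured value chose them. The cells were MOVAS, an established mouse aortic vascular smooth muscle line, so that all libraries come from a single line without endothelium, blood flow or immune cells around it. Blank cells received no agent and Dox cells received doxorubicin, which the design text uses to induce senescence, with dose and time not given in the sources used here. Besides these, the groups H2O2 (hydrogen peroxide), B_I and D_I (isoliensinine, a plant alkaloid, read from the parallel titles as added to untreated and to doxorubicin-treated cells) are used below for side-by-side values. The design text speaks of biological replicates, and the labels do not say whether the libraries came from separate cultures. The p-values therefore set a difference against the spread between libraries within groups, estimated from all 18 libraries, and not against a known spread between cultures.

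Doxorubicin is an anthracycline that slides between DNA bases and traps topoisomerase II on cut DNA, and its chemistry also loads cells with oxidants and binds iron. Damaged cells that survive can leave the cell cycle for good, enlarge, and secrete proteases, growth factors and cytokines, a state called senescence. The best-known parts of that response, p53 targets, interferon-stimulated genes and collagens, were set aside here as 50, 104 and 30 tested genes, and the other pathways are described. Of these (183 different genes) 81 differed by the test described below. In RNA from a whole culture, fewer cells of a type and less RNA per cell cannot be told apart.

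The 6 libraries held 15740815 to 23284077 counts, and the Dox libraries were deeper (at least 20140802) than the Blank libraries (at most 16553596). Blank_4 stood apart from its group: chi-square over its degrees of freedom was 45.4 and 59.5 against Blank_1 and Blank_2, compared with 9.43 between those and 8.59 to 17.1 among the Dox libraries. Of the defining smooth muscle markers, Acta2, the smooth muscle actin gene, stood at 806, 901 and 4514 CPM in Blank and 2047, 1753 and 1707 CPM in Dox, while Tagln, the transgelin gene, was close to absent (0.187, 0 and 0.601 CPM in Blank, 0.809, 0.534 and 0.407 CPM in Dox). Levels are CPM (counts relative to library size, scaled by trimmed means of M-values), listed in the order Blank_1, Blank_2, Blank_4 and Dox_1, Dox_2, Dox_3. Summed markers of T and NK lymphocytes came to 0.311, 0.801, 0.526 CPM in the Blank libraries and 1.62, 1.12, 0.679 CPM in the Dox libraries. Those of intestinal epithelium came to 197, 139.7, 62.7 and 266, 95.1, 147 CPM, and those of liver to 114, 69, 92.7 and 86, 57.5, 82.4 CPM, with 0 of 10 and 0 of 8 tested members called by edgeR (0 and 0 at an unadjusted p under 0.05). None of 8 tested endothelial markers was called. Of 8 tested fibroblast markers 3 were lower in Dox (Pdgfra, Serpinf1 and Pdgfrb, the last of which also marks mural cells).

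By edgeR's quasi-likelihood test with a Benjamini-Hochberg adjusted p under 0.05 (a call), 21.7% of 13375 tested genes differed, 10.3% higher and 11.4% lower in Dox. Without Blank_4 the share was 18.2% (8.26% higher, 9.98% lower). Of all calls 73.7% were also made without Blank_4 (6.86% of genes higher, 9.09% lower), and 0 turned sign. Calls over 2-fold made up 4.64% of genes, and the 3 Dox and 3 Blank values did not overlap for 36.1%. Without Dox_3, 1876 genes were called in place of 2896, and in 7 of 60 gene lists the more common direction turned. In what follows, paired counts in brackets are members called higher and lower both with and without Blank_4. A single value in brackets after a gene is its log2 change, Dox minus Blank. Counts of called members are to be read against the 10.3% of all genes called higher and 11.4% called lower. The processing bears on directions: on the authors' FPKM values (limma on log2(FPKM + 1)) 2625 genes were higher and 1050 lower, against 1372 and 1524 by edgeR. The median log2 change of the genes in each fit was 0.18 and 0.08. The FPKM values are divided by the library's total without trimmed-mean scaling, and the test and gene filter differ too. Which of these turned directions was not tested. Of 27 gene lists with more lower than higher members, 21 had more higher than lower members on log2(FPKM + 1), and both pairs are given for those.

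**Figure D1:**
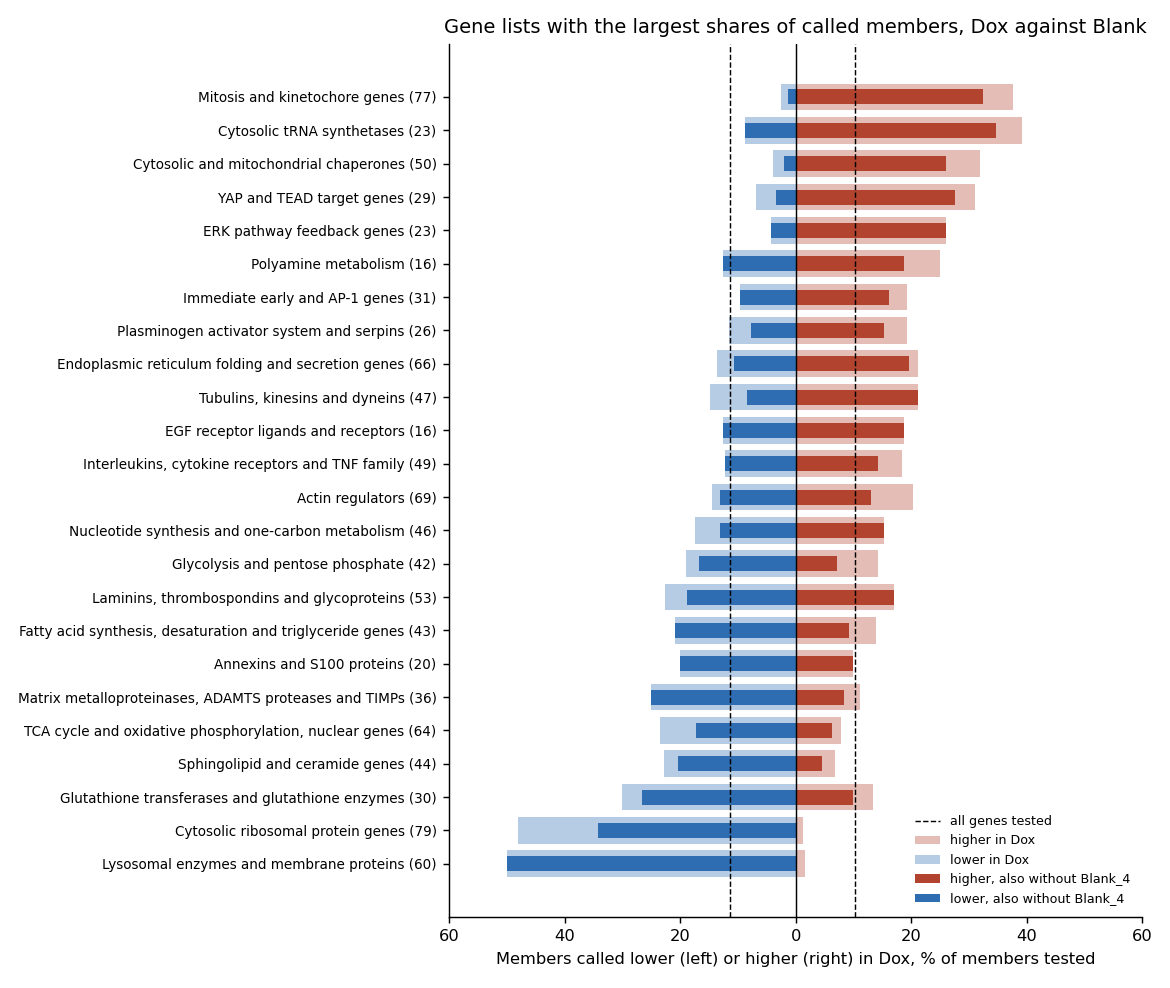
Share of tested members called higher (right) or lower (left) in Dox for the 24 of 60 gene lists with the largest shares of called members, with the number tested in brackets; dark bars are calls also made without Blank_4 and dashed lines mark all genes (10.3% and 11.4%). Lysosomal and ribosomal protein genes reach farthest to the left, mitosis and tRNA synthetase genes farthest to the right.

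Among genes of at least 5 FPKM, the 12 largest rises that held without Blank_4 were led by Sprr1a (ENSMUSG00000050359, chromosome 3, 92391259 to 92393202), a small proline-rich protein that keratinocytes crosslink into the cornified envelope. It stood at 0.498, 0.37 and 0.301 CPM in Blank and 27.2, 31.6 and 23.4 CPM in Dox (log2 6.10, SE 0.391; edgeR adjusted p = 1.05e-09; 5.93 without Blank_4). Every Dox library was above every Blank library, which the rule for naming genes required, though not by so wide a margin. The 8 keratinocyte markers summed to 6.35, 6.66, 6.46 CPM in Blank and 6.59, 5.58, 4.93 CPM in Dox, with 0 of 2 tested members called. The promoter of Sprr1a is shown because it holds a pair of matches to TGANTCA, the site of AP-1 (Fos and Jun dimers). Any match, single or more, was held by 6.53% of the 10595 tested genes with a RefSeq window (250 bases before to 50 after the start, either strand). The share with a pair was not counted. The 250 bases before the start of Sprr1a (RefSeq, GRCm38.p6, chr3:92485882-92486131, - strand) follow, with the matches in capitals.
Sprr1a: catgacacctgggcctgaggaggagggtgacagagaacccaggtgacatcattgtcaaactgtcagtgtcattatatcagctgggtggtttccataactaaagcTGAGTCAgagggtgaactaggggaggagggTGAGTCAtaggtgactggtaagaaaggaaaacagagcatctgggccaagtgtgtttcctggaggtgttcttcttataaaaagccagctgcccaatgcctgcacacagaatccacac
The match was found in 2 of the 9 largest rises with a window and in 0 of the 10 largest falls with a window.

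Akr1c18, a hydroxysteroid dehydrogenase of the family that also reduces anthracyclines, rose from 0.311, 0.185 and 0 CPM to 7.16, 8.01 and 7.88 CPM (log2 5.41, 95% interval 3.86 to 6.96; edgeR adjusted p = 2.17e-05). Tigit, an inhibitory receptor best known on T and NK cells, rose from 0.747, 0.308 and 0 CPM to 9.22, 9.56 and 7.6 CPM (interval 3.24 to 5.89), in libraries whose summed lymphocyte markers never passed 1.62 CPM. Both folds rest on few counts in Blank, and their intervals are wide. Ces2e, a carboxylesterase that hydrolyses drug esters, went from 4.23, 3.33 and 2.18 to 94.4, 149 and 116 CPM (log2 5.19). Akr1c and Ces2 genes sit in families of similar genes, between which reads may be misassigned.

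The calcium-binding Anxa8 rose from 6.6, 4.25 and 3.23 to 31.9, 40.6 and 31.6 CPM. Siglecg, a sialic acid-binding lectin known from B cells, rose from 3.99, 3.14 and 4.96 to 25, 34.3 and 23.6 CPM. Angptl4, a secreted brake on lipoprotein lipase, went from 4.92, 4.44 and 9.24 to 31.2, 33.4 and 29.4 CPM (log2 2.35; 2.71 without Blank_4). Pdk4, the kinase that shuts off pyruvate dehydrogenase, rose from 6.41, 6.78 and 3.91 to 26.2, 25.1 and 31.3 CPM (2.26). Spp1 (osteopontin, a secreted adhesive protein), Hbegf (an EGF receptor ligand) and Ccnd1 (cyclin D1) rose by 2.28, 2.22 and 2.04. Cd68, a lysosomal protein used as a macrophage marker, rose from 5.98, 5.67 and 0.977 to 17.4, 23.2 and 13.3 CPM. It was the sole member called of 8 tested macrophage markers, whose sum ran from 61.1, 45.2, 46.4 CPM in Blank to 75.3, 73.3, 59.2 CPM in Dox. Of its defining markers, Adgre1 stood at 0.249, 0.246 and 0 CPM in Blank and 0.405, 0.243 and 0.0905 CPM in Dox, and Itgam at 0.0623, 0.185 and 0 and 0.445, 0.243 and 0.136 CPM.

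At the other end, Fmod, which encodes the collagen-binding fibromodulin, fell from 610.2, 634 and 939 to 67.9, 82.1 and 75 CPM. Eln, the elastin gene, fell from 33.6, 43 and 97.1 to 5.26, 4.85 and 4.57 CPM (log2 -3.56; -2.99 without Blank_4). In both the Blank values spread more than the Dox values. That all Dox values were lower was required by the rule that named these genes. Secreted signals were among the falls: Wnt6, a Wnt ligand, went from 25.8, 24.6 and 31 to 4.33, 4.75 and 4.62 CPM. Ptn, the heparin-binding growth factor pleiotrophin, fell from 23.2, 24.5 and 17.9 to 3.52, 4.66 and 5.34 CPM. Serpinf1, pigment epithelium-derived factor, fell from 103, 109.6 and 145 to 29.7, 30.3 and 27.5 CPM. The calcium-dependent adhesion gene Cdh22 (log2 -2.49), Nrep (-2.44), the ADP-ribose hydrolase Macrod1 (-2.12) and the galectin Lgals2 (31.8, 26.4 and 54.3 to 8.33, 10.8 and 9.01 CPM) fell as well. H4c12, a histone gene whose RNA mostly lacks a poly-A tail, was called at low levels (1.25, 2.46 and 3.53 to 0.162, 0.437 and 0.272 CPM) and is uncertain for that reason.

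**Figure D2:**
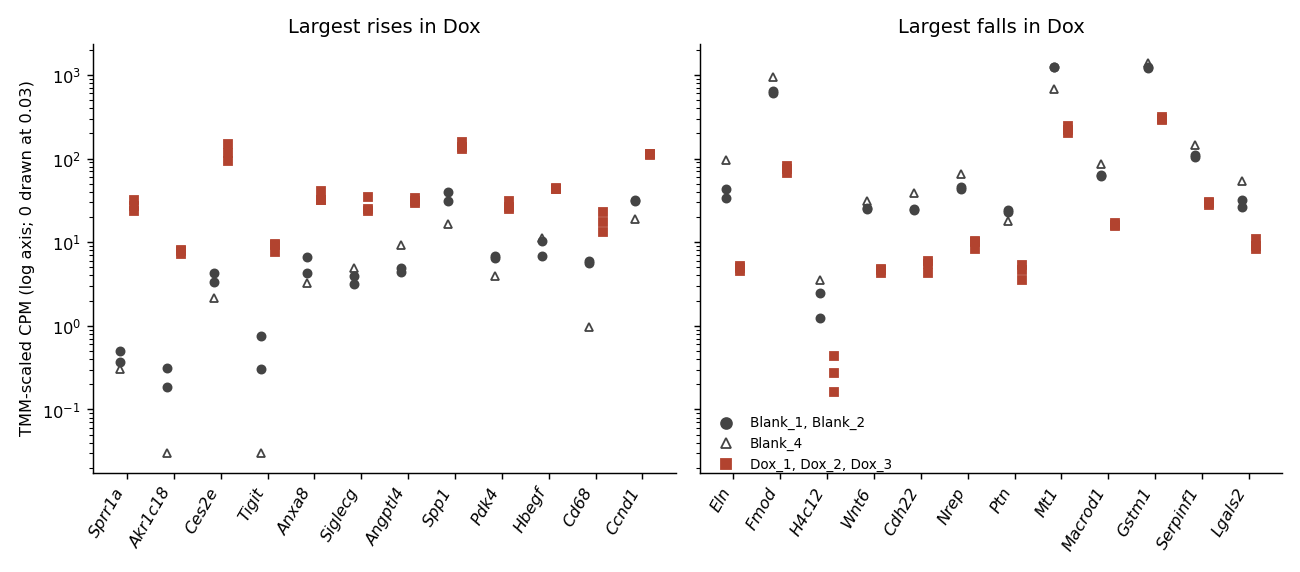
Scaled CPM (log axis) in each library for the 12 largest rises and the 12 largest falls; circles are Blank_1 and Blank_2, open triangles Blank_4, squares the 3 Dox libraries, and 0 is drawn below the lowest value. Dox and Blank values separate for each of the 24 genes, as the naming rule required, and Blank_4 lies away from the other Blank values for Cd68, Eln and Mt1.

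Of the genes that doxorubicin meets directly, several were not called. Top2a, the topoisomerase II of dividing cells and its main target, stood at 117, 118 and 51.4 CPM in Blank and 167, 98.6 and 177 CPM in Dox and was not called (log2 0.63, 95% interval 0.02 to 1.23; edgeR adjusted p = 0.135). Blank_4 and Dox_2 were low in their groups. Top2b, the form of resting cells, stood at 13.6, 9.18 and 4.13 and 11.2, 6.4 and 10.2 CPM (-0.70 to 0.78), and the carbonyl reductase Cbr1, which turns doxorubicin into doxorubicinol, at 15.3, 12.9 and 12.5 and 11.2, 14.7 and 12.2 CPM (-0.50 to 0.31). Neither was called. Over the list of targets, efflux pumps and carbonyl reductases, 6 of 28 tested members were higher and 2 lower (5 and 2 also without Blank_4). The efflux pump Abcg2 rose from 6.97, 4.31 and 6.46 to 11, 13 and 15.4 CPM and the aldose reductase Akr1b3 from 259, 251 and 317 to 513, 541 and 482 CPM. Cbr2, a lung-type carbonyl reductase, fell from 256, 238 and 435 to 92.9, 124 and 105 CPM. Abcb1b, a multidrug pump of the P-glycoprotein type, was higher (4.23, 5.67 and 3.31 against 9.91, 9.02 and 10.2 CPM; log2 1.14, edgeR adjusted p = 0.0353), but the call was lost in 6 of 16 alternatives, among them those without Blank_4 (0.127), Blank_1 or any 1 Dox library (adjusted p 0.00865 to 0.13 over all alternatives).

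Glutathione transferases, which couple drugs and lipid peroxides to glutathione, were mostly lower where they were called: 4 of 30 tested members were higher and 9 lower (3 and 8 also without Blank_4). Gstm1 fell from 1208, 1229 and 1368 to 287, 318 and 295 CPM (log2 -2.08, SE 0.118; edgeR adjusted p = 4.36e-10), with all values tight within each group. Gstm2 (-1.09) and Gstt1 (-1.31) fell too. Gst genes of a class resemble each other, and reads may be split between them. Carboxylesterases, cytochromes and conjugating enzymes divided, 6 higher and 5 lower of 45 (6 and 4, but 5 and 8 with DESeq2 size factors): beside Ces2e, Ces2g rose (0.75) and the mitochondrial Aldh5a1 fell (-0.79). The share called in that list was 24.4%, against 21.7% of all genes. Slc7a11, which imports cystine for glutathione synthesis, was not called (4.17, 6.84 and 4.81 and 7.69, 8.78 and 7.88 CPM; log2 0.62, edgeR adjusted p = 0.0777).

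The metal list gave 3 higher and 5 lower of 32 (2 and 5, but 6 and 5 on log2(FPKM + 1)), 25% called against 21.7% of all genes. Mt1, a metallothionein that binds zinc and copper, fell from 1233, 1252 and 681 to 218, 246 and 201 CPM (log2 -2.25; -2.51 without Blank_4; edgeR adjusted p = 2.48e-07); Blank_4 was the lowest Blank value and was still above every Dox value. Its promoter is shown for the metal response element, the site of the zinc-sensing factor MTF1, here searched as TGCNCNC on either strand. That short motif is common: 64.4% of tested genes with a window hold it. The 250 bases before the start (RefSeq, GRCm38.p6, chr8:94178839-94179088, + strand) hold 1 match, in capitals, and the next 50 hold 2 more.
Mt1: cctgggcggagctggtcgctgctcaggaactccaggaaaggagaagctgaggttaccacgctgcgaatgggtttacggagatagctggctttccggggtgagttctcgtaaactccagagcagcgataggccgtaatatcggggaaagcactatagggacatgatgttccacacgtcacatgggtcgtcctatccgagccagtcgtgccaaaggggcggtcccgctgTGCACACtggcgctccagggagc
Ftl1, the ferritin light chain that stores iron, fell from 1088, 849.7 and 732 to 368, 423 and 324 CPM. Slc40a1, the iron exporter ferroportin, fell from 20.3, 20.2 and 15.1 to 11.2, 8.25 and 7.47 CPM. Hmox1, the heme oxygenase that releases iron from heme, rose from 126, 137 and 135 to 206, 223 and 191 CPM. Lcn2, a siderophore-binding lipocalin, rose from 4.73, 3.51 and 2.7 to 13, 8.83 and 9.37 CPM. Tfrc, the transferrin receptor, was not called (14.9, 16.3 and 11.1 and 24.1, 16.3 and 25.7 CPM; log2 0.64, edgeR adjusted p = 0.123).

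EGF receptor ligands and receptors gave 3 higher and 2 lower of 16 (3 and 2). Hbegf rose from 6.79, 10.2 and 11.2 to 43.7, 43.1 and 44.1 CPM (4.65-fold; edgeR adjusted p = 5.03e-08); the Dox values lay close together and above every Blank value. Egfr, its receptor, fell from 65.7, 62.4 and 85 to 45.2, 43 and 46.7 CPM (log2 -0.66). Errfi1, which blocks that receptor's kinase, rose from 36.6, 29.7 and 31 to 61.9, 61.5 and 48.2 CPM. Areg, another ligand, had 0 counts in all Blank libraries and 0.445, 0.437 and 0.272 CPM in Dox and was not called (edgeR adjusted p = 0.0945).

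A further list holds targets and feedback genes of the ERK kinase cascade (ERK feedback genes). It gave 6 higher and 1 lower of 23 (6 and 1), against 10.3% and 11.4% of all genes. The median log2 change of its members was 0.48, and 0.30 without Blank_4, so its size depends on that library. Activity of the cascade was not tested. Ccnd1 rose from 31, 31.7 and 18.9 to 113, 112 and 111 CPM, and the phosphatase genes Dusp10 (log2 1.34) and Dusp1 (1.38; call lost without Blank_2) rose with it. Egr1, an immediate early factor of the same cascade, fell from 316, 312 and 262 to 195, 220.4 and 215 CPM, and Dusp6, the ERK-specific phosphatase, was not called (18.7, 23 and 13.4 and 19.8, 22.9 and 26.3 CPM; 0.32, edgeR adjusted p = 0.328). Immediate early and AP-1 genes gave 6 higher and 3 lower of 31 (5 and 3): the stress-induced repressor Atf3 (1.19) and the small Maf genes Mafk (1.10) and Maff (1.10) rose, while Batf3 (-2.34) and the large Maf gene Maf (-1.11) fell.

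Genes of FGF, VEGF, HGF and PDGF signalling gave 3 higher and 6 lower of 36 (2 and 6, but 4 and 3 on log2(FPKM + 1)). Pdgfrb, the receptor of platelet-derived growth factor that marks mural cells, fell from 332, 384 and 429.7 to 202, 208 and 212 CPM. Vegfb, a vascular growth factor, fell from 103, 95.5 and 58.8 to 28.7, 33.7 and 30.2 CPM. Csf1, the growth factor of macrophages, rose from 93.5, 102 and 135 to 248, 229.6 and 229 CPM. Fgf18 rose from 0.685, 0.555 and 0.751 to 2.31, 4.12 and 2.67 CPM. Of the insulin-like growth factor axis, 1 higher and 1 lower of 19 (0 and 1), the binding protein gene Igfbp5 fell from 12, 14.2 and 15.9 to 5.54, 3.11 and 2.85 CPM.

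TGF-beta and BMP genes, 6 higher and 4 lower of 46 (5 and 4), included lower Tgfb1 (502, 473 and 548 to 315, 306 and 273 CPM), the ligand, and lower Tgfbi (-2.10), a matrix protein it induces. Acvrl1, a type I BMP receptor known from endothelium, rose from 1.31, 0.37 and 0.751 to 4.98, 6.11 and 4.35 CPM, and Gdf11 (0.90) and the activin binder Fstl3 (0.75) rose as well. Tgfb2 was not called (9.84, 14.7 and 15.6 and 19.7, 13 and 20.4 CPM; 0.41, edgeR adjusted p = 0.196). Wnt genes were lower more often than higher, 2 higher and 9 lower of 39 (2 and 7): after Wnt6, the co-receptor Ror1 (-1.92) and the secreted antagonist Sfrp2 (66.1, 80.8 and 113 to 27.6, 25 and 31.5 CPM) fell, whereas Wnt9a rose from 1.62, 2.1 and 5.41 to 9.1, 10.1 and 13 CPM. Ctnnb1 (beta-catenin) rose from 103, 109 and 111 to 146, 147 and 171 CPM.

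Notch and Hedgehog genes gave 4 higher and 4 lower of 29 (3 and 3), a share of 27.6% called against 21.7% of all genes. Notch1 (14.4, 16.9 and 15.3 to 28.8, 27.6 and 30.7 CPM), its nuclear partner Rbpj (0.69) and the Notch-modifying glycosyltransferase Mfng (1.57) rose, and the Hedgehog co-receptor Gas1 (64.4, 63.2 and 51 to 20.5, 23.6 and 24.3 CPM) and effector Gli2 (-1.08) fell. Notch3, the receptor typical of vascular smooth muscle, was not called (92, 96.7 and 135 and 116, 116 and 116 CPM; edgeR adjusted p = 0.646). Targets of YAP and TEAD, the factors that read cell spreading and stiffness, were higher in 9 of 29 and lower in 2 (8 and 1), with a median log2 change of 0.37. Ankrd1 rose from 10.03, 7.95 and 12.3 to 26.8, 24.7 and 27.2 CPM. Amotl2 rose from 103, 109 and 155 to 269, 247 and 256 CPM. Ptpn14 rose from 31.7, 41.2 and 29.7 to 76.5, 84 and 89.3 CPM, while the factor gene Tead2 fell from 237, 249 and 309 to 153, 154 and 144 CPM.

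Guidance and adhesion genes held some of the steepest relative changes at low level. Robo3, an axon guidance receptor, rose from 0.187, 0.123 and 0 to 8.7, 10.3 and 9.41 CPM (95% interval of the log2 change 5.29 to 7.40), and few reads lie behind its Blank values. Semaphorin genes Sema6b (1.85) and Sema7a (1.56) rose, and the kinase-dead ephrin receptor gene Ephb6 fell from 148, 163 and 214 to 67.6, 84.7 and 66.1 CPM. The guidance list gave 7 higher and 5 lower of 51 (6 and 5). Mcam (CD146), an adhesion molecule of vessel walls, rose from 24.8, 32.5 and 46.4 to 123, 130.1 and 119.8 CPM (log2 1.85; edgeR adjusted p = 3.29e-07). Fat1, a giant cadherin, rose from 128, 156 and 206 to 282, 242 and 332 CPM. The list of cadherins, nectins and junction proteins gave 7 higher and 5 lower of 48 (4 and 5), 25% called against 21.7% of all genes. Among integrins, 4 higher and 3 lower of 26 (3 and 3), Itgb7 rose from 2.12, 0.801 and 2.33 to 9.02, 10.5 and 7.83 CPM. Itgb1, the common beta chain, rose from 132, 117 and 93.4 to 184, 138 and 218 CPM. Itgb5, a vitronectin receptor chain, fell from 424, 424 and 587 to 317, 314 and 285 CPM. Keratin, desmosome and cornified envelope genes gave 6 higher and 0 lower of 23 (4 and 0), of which Sprr1a, Anxa8 and the desmosomal plakophilin Pkp2 (1.10) met the naming rule.

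Matrix proteases and their inhibitors were more often lower than higher, 4 higher and 9 lower of 36 (3 and 9), against 11.4% lower among all genes. Adamts2, which trims procollagen, fell from 124, 123 and 133 to 40.5, 45 and 45.9 CPM. Mmp23 fell from 96.3, 84.5 and 147 to 36.6, 36.6 and 34.5 CPM. Adamts10, a partner of fibrillin microfibrils, fell from 63.2, 63 and 86.2 to 29.6, 36 and 27.4 CPM. Mmp19 (1.05) and the membrane-bound Mmp15 (0.76) rose, and so did the inhibitor Timp3 (39.4, 44 and 40.5 to 62.6, 55.6 and 56.8 CPM). Mmp2, gelatinase A, was called higher (76.2, 91.9 and 65.4 to 97.4, 109 and 101 CPM; edgeR adjusted p = 0.0206), a call lost in 7 of 16 alternatives, among them the fit of the 6 libraries alone and those without Blank_4 (0.14), Blank_1, Dox_2 or Dox_3 (0.00205 to 0.144 over all alternatives). Plau (urokinase, which makes plasmin) rose from 1.74, 2.22 and 3.98 to 10.5, 9.32 and 11.7 CPM and its receptor Plaur from 9.71, 10.1 and 12.5 to 23.9, 25.2 and 24.3 CPM, in a list of plasminogen activators and serpins with 5 higher and 3 lower of 26 (4 and 2). Serpinh1, the collagen chaperone HSP47, fell (-0.62).

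Laminin and glycoprotein genes, 9 higher and 12 lower of 53 (9 and 10, but 12 and 11 on log2(FPKM + 1)), moved both ways. Spp1, given above with the largest rises, rose from 39.9, 30.8 and 16.5 to 158, 129 and 139 CPM. Fbln5 (fibulin 5, which assembles elastin) fell from 437, 465 and 461 to 117, 145 and 133 CPM. Matn2 fell from 65.6, 69.7 and 48 to 21.5, 21.1 and 19.1 CPM. Sparc fell from 5513, 5537 and 6163 to 1911, 1998 and 1906 CPM. Of proteoglycan genes, 6 higher and 5 lower of 46 (4 and 3, but 5 and 7 with DESeq2 size factors), the heparan sulfate endosulfatase Sulf2 (82.8, 87.3 and 74.2 to 160.3, 209 and 169 CPM) and the syndecan Sdc4 (47.2, 50.6 and 53.1 to 105, 91.7 and 105 CPM) rose and the keratan sulfotransferase Chst1 fell (-0.83). Has2, the hyaluronan synthase gene, did not pass the expression filter and was not tested.

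In the contractile list 4 of 22 tested members were higher and 1 lower (4 and 0 also without Blank_4), 22.7% called against 21.7% of all genes. Cald1 (caldesmon) went from 55.5, 64.6 and 38.6 to 116, 77 and 119 CPM. Mylk, the kinase that triggers contraction, rose from 8.34, 7.64 and 6.91 to 16.5, 12.4 and 16.7 CPM. Cnn1 (calponin) was called (1.31, 1.79 and 6.31 to 10.9, 6.84 and 7.11 CPM; edgeR adjusted p = 0.0319); Blank_4 lay near the Dox values, and the call was lost in a fit of the 6 libraries alone and without Blank_1, Blank_2, Dox_1 or Dox_3 (1.54e-04 to 0.136 over all alternatives). Actin regulators gave 14 higher and 10 lower of 69 (9 and 9). Rnd1, an atypical small GTPase that loosens stress fibres, rose from 37.9, 36.9 and 67.2 to 118, 144 and 119 CPM, while Rhoj (-1.44) and the actin-sequestering Tmsb10 (1952, 2216 and 2438 to 1114, 1319.7 and 1128 CPM) fell. In the tubulin and motor list, 10 higher and 7 lower of 47 (10 and 4), the neuron-type tubulins Tubb2b (42.9, 41.3 and 53.9 to 101, 93.5 and 93.7 CPM) and Tubb3 (0.83) rose and the common Tubb5 fell (-0.59). Reads may be misassigned between tubulin genes, whose sequences are alike. Of primary cilium genes, 0 higher and 8 lower of 45 (0 and 5, but 4 and 1 on log2(FPKM + 1)), the transport subunit Ift43 fell from 22, 24.2 and 23.7 to 12.5, 13.5 and 11.5 CPM.

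Mitosis genes, which build the spindle and kinetochore, were the list with the most higher members: 29 of 77 tested members were higher and 2 lower (25 and 1 also without Blank_4), with a median log2 change of 0.42 (0.35 without Blank_4) against 0.08 (0.03) for all genes. Dlgap5, a spindle assembly protein, rose from 13.6, 12.6 and 7.51 to 43.4, 41.7 and 52.3 CPM (log2 2.02, SE 0.194; edgeR adjusted p = 2.74e-07). Ccnb2, a mitotic cyclin, rose from 72.5, 74.2 and 74.4 to 157, 143 and 155 CPM. Prc1, which bundles the central spindle, rose from 46.3, 51.4 and 33.8 to 89.7, 83.5 and 106 CPM. Blank_4 was the lowest Blank value for Dlgap5 and Prc1 and not for Ccnb2. Cenpm, a centromere protein, fell from 196, 186 and 274 to 118, 125 and 102 CPM. Promoters of such genes carry the cell cycle homology region TTTGAA, to which the DREAM and MuvB complexes bind, and it was present (either strand) in 16 of 23 higher members with a window, 25 of 41 members not called and 14.4% of all tested genes with a window. The 250 bases before a start of Prc1 (RefSeq, GRCm38.p6, chr7:80294226-80294475, + strand) are shown as an example, with the match in capitals.
Prc1: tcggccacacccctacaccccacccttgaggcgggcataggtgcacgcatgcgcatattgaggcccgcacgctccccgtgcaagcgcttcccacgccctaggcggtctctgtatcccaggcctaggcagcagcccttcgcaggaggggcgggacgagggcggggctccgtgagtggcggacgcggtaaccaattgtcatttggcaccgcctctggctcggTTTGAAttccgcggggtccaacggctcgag

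Among replication genes lower members outnumbered higher ones by edgeR, but not on log2(FPKM + 1). Of all tested genes 11.4% were lower. Of the 54 tested replication genes 30 were among the genes of highest level (from 78.6 CPM), where 29.4% were lower and 11.7% higher. In the list of replication and E2F targets, 4 higher and 8 lower of 54 (1 and 7, but 13 and 6 on log2(FPKM + 1)), the chromatin assembly factor Chaf1b fell from 211, 211 and 232 to 113, 111 and 105 CPM, the polymerase subunit Pold2 (-0.76) and cyclin E1 (Ccne1, -0.67) fell, and the origin factor Mcm10 rose from 54.1, 60.02 and 48.2 to 85, 90 and 96.4 CPM. Of nucleotide and one-carbon genes, 7 higher and 8 lower of 46 (7 and 6, but 21 and 4 on log2(FPKM + 1)), Rrm2, which makes deoxynucleotides, rose from 59.9, 56.9 and 60.4 to 99.9, 97.3 and 106 CPM, and Upp1 (1.66) and Prps1 (0.83) rose, while thymidine kinase Tk1 (162, 137 and 227 to 118, 113 and 99 CPM), the purine enzyme Paics (-0.67) and Ahcy (-0.54) fell.

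Homologous recombination and Fanconi genes gave 7 higher and 1 lower of 47 (5 and 1), a share of 17% called against 21.7% of all genes. Without Blank_4 9 were higher and 1 lower, against 18.2% of all genes called, so which share is larger depends on that library. Other repair pathways gave 5 higher and 3 lower of 60 (3 and 3), a share of 13.3%. The members that did move included Fancd2 of the crosslink pathway (24.9, 20.8 and 23.4 to 45.9, 44.7 and 45.7 CPM), which was higher, and the base excision genes Ung (32.9, 31.9 and 39.1 to 18.7, 19.6 and 16 CPM) and Apex1 (-0.84), both lower. Chromatin enzymes, 6 higher and 9 lower of 103 (4 and 7, but 18 and 6 on log2(FPKM + 1)), were at 14.6%, with Hdac1 (52.9, 52.2 and 49.7 to 98.2, 105 and 113 CPM) and Chd8 (0.95) higher and Sirt2 (-0.71) and Cbx2 (-0.83) lower. Of clock genes, 2 higher and 2 lower of 21 (2 and 2), the clock output factor Dbp fell from 109, 119 and 121 to 47.7, 51.5 and 50.6 CPM and the repressor Per2 rose from 3.8, 3.76 and 3.83 to 8.7, 7.23 and 8.55 CPM. Hox genes gave 1 higher and 1 lower of 18 (1 and 1), with Hoxb9 higher (0.51).

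Genes of the translation machinery parted by class. Cytosolic ribosomal protein genes were lower in 38 of 79 and higher in 1 (0 higher and 27 lower also without Blank_4), and on log2(FPKM + 1) 31 were lower and 4 higher. Their median log2 change was -0.45, and -0.24 without Blank_4, so that the size depends on that library by more than 1.5 times. Of the tested members 71 were among the top 20% of all genes by level, where 29.4% were lower. Rpl10 fell from 3078, 2889.7 and 3680.1 to 1540.1, 1677 and 1442 CPM. Processed copies of these genes are many and their reads are uncertain. Ribosome biogenesis genes went the other way, 13 higher and 2 lower of 63 (9 and 2): Rrn3, which recruits RNA polymerase I, rose from 40.2, 37.7 and 25.2 to 67.4, 57.1 and 71.7 CPM and the nucleolar helicases Ddx21 (0.88) and Ddx18 (0.70) rose, while the polymerase subunit Polr1c fell (-0.82). Ncl, nucleolin, was not called (57, 51 and 31.2 and 54.9, 33 and 60.7 CPM; edgeR adjusted p = 0.848).

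Cytosolic tRNA synthetases, which charge tRNAs with amino acids, were higher in 9 of 23 and lower in 2 (8 and 2), with Lars (20.3, 21.8 and 27.4 to 47.3, 36.2 and 48.7 CPM), Tars (45.5, 47.1 and 44.3 to 86.4, 77.7 and 95.3 CPM) and Hars (0.80) higher and Qars (-0.44) lower. Mitochondrial ribosomal proteins gave 3 higher and 15 lower of 76 (3 and 8, but 16 and 6 on log2(FPKM + 1)), for example Mrpl23 from 81.2, 75.6 and 99 to 46.6, 48.4 and 45.5 CPM. Splicing factors and RNA-binding proteins, 7 higher and 6 lower of 67 (3 and 5, but 4 and 7 with DESeq2 size factors), lay near the background at 19.4%, with Srrm2 higher (0.57) and Snrpa lower (-0.63).

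Protein folding and degradation genes were mostly higher where called. Cytosolic and mitochondrial chaperones were higher in 16 of 50 and lower in 2 (13 and 1), with a median of 0.30 (0.26 without Blank_4). Hsph1, a nucleotide exchange factor of HSP70, rose from 50.2, 58.1 and 37.2 to 96.3, 82 and 103 CPM, the co-chaperone Dnaja4 from 6.29, 9.49 and 5.56 to 13.8, 21.8 and 13.4 CPM and the inducible HSP70 gene Hspa1b from 11.8, 14.1 and 19.8 to 26, 30.4 and 27.5 CPM. Hspb6, the small heat shock protein of smooth muscle, fell from 187, 187 and 265 to 116, 118 and 102 CPM. The heat shock element, searched as GAANNTTC on either strand, was in 6 of 15 higher chaperone genes with a window and in 8 of 26 not called, against 6.88% of all tested genes with a window. Proteasome subunits gave 9 higher and 1 lower of 41 (6 and 1), 24.4% called against 21.7% of all genes. Psma4 (39.6, 51.6 and 26.4 to 70.1, 61.4 and 77.5 CPM) and Psmd11 (47.4, 48.3 and 49.4 to 71.9, 73.5 and 79.4 CPM) were higher and the immune-type activator Psme1 was lower (-0.63).

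Endoplasmic reticulum folding and secretion genes gave 14 higher and 9 lower of 66 (13 and 7). Hspa5 (BiP), the chief chaperone of the compartment, rose from 154, 195 and 144 to 353, 313 and 423 CPM (log2 1.14; edgeR adjusted p = 3.72e-06). Ern1, the sensor that splices Xbp1, rose from 21.9, 21.4 and 20.1 to 49.4, 55.6 and 46.8 CPM. Kdelr1, which returns escaped chaperones from the Golgi, fell from 643, 623 and 785 to 385, 403 and 349.7 CPM, as did Kdelr3 (-0.56). Hspa5 is a textbook stress promoter with repeated CCAAT boxes, the core of its stress elements, and CCAAT (either strand) was in 9 of 12 higher members of this list with a window, 22 of 37 not called and 43.1% of all tested genes with a window. The 250 bases before its start (RefSeq, GRCm38.p6, chr2:34771840-34772089, + strand) hold 4, in capitals.
Hspa5: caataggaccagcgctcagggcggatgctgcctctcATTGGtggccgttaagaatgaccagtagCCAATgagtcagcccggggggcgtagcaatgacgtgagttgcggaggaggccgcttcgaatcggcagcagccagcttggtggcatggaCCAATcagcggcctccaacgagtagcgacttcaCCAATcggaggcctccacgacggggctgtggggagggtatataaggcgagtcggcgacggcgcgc

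Lysosomal genes had the largest share of calls among the 60 pathway lists (51.7%), below the 56% of the p53 targets set aside. Of 60 tested enzymes and membrane proteins 30 were lower and 1 higher; without Blank_4 all 30 of these lower calls were kept and 34 were made in all, and the median log2 change was -0.38 (-0.47 without Blank_4). On log2(FPKM + 1) 16 were lower and 3 higher, with a median of -0.21. Grn, the progranulin gene, fell from 842, 839.8 and 690.3 to 388, 423 and 382 CPM (log2 -0.99, SE 0.0997; edgeR adjusted p = 4.73e-07). Hexa, which degrades gangliosides, fell from 322, 324 and 238 to 149, 175 and 141 CPM. Tfeb, the factor that switches lysosomal genes on, fell from 53.4, 53.3 and 72.7 to 31, 32.7 and 28.7 CPM. The TFEB-type E-box CACGTG was in 8 of 24 lower members with a window, 5 of 22 not called and 11.3% of all tested genes with a window. Ctsa, cathepsin A, was picked after its values were seen because 1 of its 2 windows holds 2 such matches, 1 of them in the 250 bases before that start (RefSeq, GRCm38.p6, chr2:164833523-164833772, + strand), in capitals below. Its other window held 0, and so did every window of Grn, Hexa and Tfeb.
Ctsa: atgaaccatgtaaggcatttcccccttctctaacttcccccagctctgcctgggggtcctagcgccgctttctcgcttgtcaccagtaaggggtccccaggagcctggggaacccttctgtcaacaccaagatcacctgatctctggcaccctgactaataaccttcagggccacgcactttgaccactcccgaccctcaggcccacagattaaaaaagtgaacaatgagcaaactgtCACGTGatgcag
Its level fell from 782, 802 and 561 to 361, 413 and 364 CPM. Of the tested lysosomal genes 37 were among the top 20% of all genes by level, where 29.4% were lower and 11.7% higher.

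Other vesicle compartments had smaller shares of calls. Subunits of the vacuolar ATPase, the pump that acidifies lysosomes, gave 1 higher and 4 lower of 19 (1 and 4, but 3 and 1 on log2(FPKM + 1)), with Atp6ap1 lower (421, 428 and 375 to 289.6, 314 and 272 CPM) and Atp6v0a2 higher (0.69). Golgi genes gave 5 higher and 7 lower of 56 (4 and 7, but 13 and 7 on log2(FPKM + 1)). There the sialyltransferases St3gal1 (74.7, 69.3 and 97.2 to 37.7, 28.5 and 26.1 CPM) and St6galnac6 (-1.29) fell and the recycling protein Tgoln1 (0.91) rose. Of Rab, SNARE and exocytosis genes, 5 higher and 6 lower of 60 (5 and 6, but 8 and 4 on log2(FPKM + 1)) and 18.3% called, Syt11 rose (1.04) and Rab3d fell (-0.63). Sphingolipid and ceramide genes gave 3 higher and 10 lower of 44 (2 and 9, but 7 and 6 on log2(FPKM + 1)): Smpd2, a neutral sphingomyelinase, fell from 51.6, 57.9 and 68.9 to 35.3, 33.8 and 30.8 CPM and the ceramide synthase Cers1 from 24.1, 23.5 and 16.8 to 11.9, 13.6 and 10.8 CPM. Sgms2, which remakes sphingomyelin, rose from 18.2, 16.5 and 11.6 to 28.4, 31 and 30.2 CPM.

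**Figure D3:**
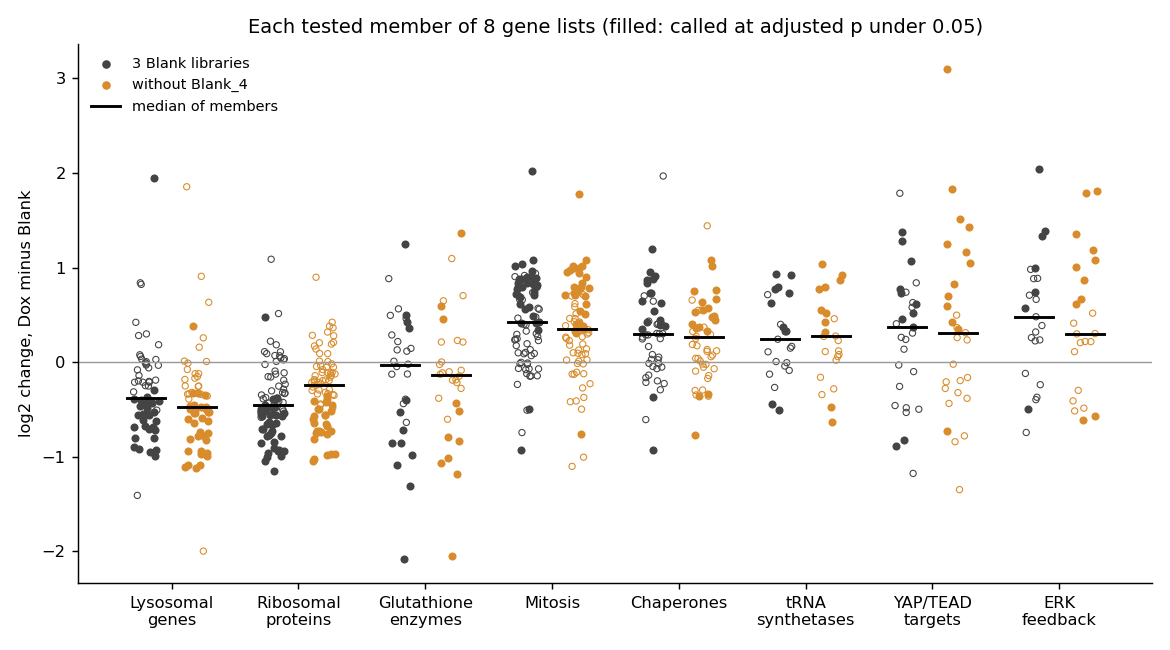
The log2 change (Dox minus Blank) of each tested member of 8 gene lists, with 3 Blank libraries (dark) and without Blank_4 (orange); filled points are calls and bars are medians. The ribosomal median moves from -0.45 to -0.24 without Blank_4 and the lysosomal median from -0.38 to -0.47.

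Nuclear genes of the TCA cycle and oxidative phosphorylation gave 5 higher and 15 lower of 64 (4 and 11, but 14 and 11 on log2(FPKM + 1)), and 45 of them were among the top 20% of all genes by level, where 29.4% were lower. Idh2 (224, 243 and 298 to 144, 160.1 and 135 CPM), Ndufs8 (216, 207 and 309 to 140.3, 152 and 126 CPM) and Ndufb10 (-0.84) fell, whereas Sdha, the flavoprotein of complex II, rose from 74.8, 71.7 and 78.4 to 123, 120.4 and 139.8 CPM. Ndufs1, the largest subunit of complex I, rose from 12.8, 10.5 and 9.69 to 22.5, 17.3 and 20.2 CPM. Glycolysis and pentose phosphate genes gave 6 higher and 8 lower of 42 (3 and 7, but 13 and 7 on log2(FPKM + 1)), with Pgk1 higher (517, 426 and 599 to 789, 841 and 759 CPM) and the transketolase Tkt lower (519, 473 and 542 to 325, 340.5 and 298 CPM). In lipid synthesis, 6 higher and 9 lower of 43 (4 and 9, but 8 and 4 on log2(FPKM + 1)), the desaturases Fads1 (1079, 1145 and 865 to 591, 609.8 and 569 CPM) and Fads2 (-0.77) fell and Acly, which supplies acetyl-CoA, rose (0.59). Scd1, the stearoyl desaturase, also fell (612, 697 and 386 to 321, 333 and 349 CPM; edgeR adjusted p = 0.00625), although on FPKM values it was not called (2.61e-05 to 0.098 over all alternatives). Fatty acid oxidation and peroxisome genes gave 6 higher and 5 lower of 52 (3 and 4, but 4 and 5 with DESeq2 size factors), with Acox3 higher (0.90), Acaa1a lower (-0.73) and Cpt1a, the gate to mitochondrial oxidation, not called (185, 183 and 116 and 188, 186 and 193 CPM; edgeR adjusted p = 0.268).

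Polyamine genes gave 4 higher and 2 lower of 16 (3 and 2). Odc1, the first enzyme of the pathway, rose from 370.5, 372 and 481 to 526, 556 and 533 CPM (log2 0.40; edgeR adjusted p = 0.00896, lost without Blank_1 and in a fit of the 6 libraries alone), and the oxidase Paox fell from 22.5, 22.4 and 24.9 to 8.17, 10.4 and 9.64 CPM. Eicosanoid genes, 2 higher and 5 lower of 39 (0 and 3, but 3 and 1 on log2(FPKM + 1)), included lower Pld3 (366, 359.7 and 322 to 232, 257 and 229 CPM), and Ptgs2, cyclooxygenase 2, was low and not called (0.934, 1.05 and 1.5 and 2.99, 1.89 and 2.26 CPM; edgeR adjusted p = 0.428). Amino acid and glucose transporters gave 5 higher and 4 lower of 41 (3 and 4), with the glucose transporter Slc2a10 (2.86, 3.02 and 4.43 to 9.06, 8.98 and 9.91 CPM) and the arginine transporter Slc7a1 (0.54) higher and the lysosomal glutamine transporter Slc38a7 lower (-1.09). FOXO targets and stress adaptors gave 2 higher and 5 lower of 27 (2 and 4, but 9 and 4 on log2(FPKM + 1)): Cited2 (1.14) and the thioredoxin inhibitor Txnip (31.9, 30.7 and 56 to 78.9, 80.7 and 72.6 CPM) rose and Foxo4 (69.2, 69.1 and 71.1 to 32.9, 33.7 and 35.4 CPM) and the glucocorticoid-induced Tsc22d3 (-0.98) fell.

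Among immune and membrane genes, interleukins, cytokine receptors and TNF family members gave 9 higher and 6 lower of 49 (7 and 6). Tnfrsf23, a decoy receptor for TRAIL, rose from 15.8, 13.1 and 14.6 to 50.5, 51 and 50.5 CPM. Il11ra1, the interleukin 11 receptor, fell from 195, 177 and 280.4 to 96.4, 111 and 85.5 CPM. Complement component C3 rose from 88, 75.9 and 110.4 to 231, 262 and 259 CPM. C1ra, a protease of the classical pathway, fell from 74, 75.8 and 45.2 to 32, 33.8 and 34.6 CPM, in a list of 3 higher and 4 lower of 26 (2 and 4, but 6 and 4 on log2(FPKM + 1)). Chemokine genes and receptors gave 2 higher and 3 lower of 20 (1 and 2, but 3 and 2 on log2(FPKM + 1)), with the chemerin receptor Cmklr1 lower (3.3, 3.57 and 4.51 to 1.29, 0.97 and 0.634 CPM). Vasoactive genes gave 5 higher and 6 lower of 52 (3 and 4, but 4 and 1 on log2(FPKM + 1)), with Ece1, the enzyme that activates endothelin, higher (26.5, 33.2 and 32 to 58, 63.2 and 69.3 CPM) and Pde1b, a calmodulin-regulated phosphodiesterase, higher (0.99). Ion channel genes gave 4 higher and 8 lower of 56 (1 and 7): the calcium pump Atp2a2 (SERCA2) rose from 163, 194 and 168 to 287, 239.9 and 325 CPM, and the potassium channel genes Kcnab2 (171, 150.1 and 240.2 to 75.5, 76.6 and 70.5 CPM) and Kcnh2 (-0.82) and the cation channel Trpm4 (-0.91) fell. Annexin and S100 genes gave 2 higher and 4 lower of 20 (2 and 4, but 4 and 3 on log2(FPKM + 1)), with Anxa3 higher (0.96) and S100a1 lower (-1.09).

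Leaving out Blank_4 also added calls. There were 378 genes called without it and not with it, and 762 of the reverse kind. The 11 plotted were chosen after their values were seen, among those of at least 5 FPKM in Dox whose log2 change increased most without Blank_4. Ccn2 (connective tissue growth factor) stood at 27.1, 32.4 and 122 CPM in Blank and 114, 105 and 105 CPM in Dox, so its log2 change was 0.84 (edgeR adjusted p = 0.244) with Blank_4 and 1.83 (9.86e-04) without. In this gene Blank_4 lay at or above the Dox values and the other Blank libraries far below. Igfbp3, a carrier of insulin-like growth factors at low level (0.809, 0.246 and 3.08 and 5.62, 4.32 and 4.12 CPM), had Blank_4 between the other Blank values and the Dox values (1.79 and 3.11). The BMP-induced genes Id1 (0.69 and 1.37), Id2 (0.96 and 1.74) and Id3 (-0.22 and 0.84) were also called only without Blank_4, and for Id3 the sign turned. The summed smooth muscle markers, 1057, 1152, 5137 CPM in Blank and 2411, 2116, 2044 CPM in Dox, were highest in Blank_4. Most of the Blank_4 sum was Acta2 (4514 CPM). Tagln, Cnn1, Myl9, Smtn and Lmod1 were also highest in Blank_4 among the Blank libraries. Myh11 (11.3, 5.61 and 1.8 CPM in Blank), Des (20.2, 16.8 and 14.4 CPM) and Mylk (8.34, 7.64 and 6.91 CPM) were lowest there. The part of these markers in the results was not tested.

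**Figure D4:**
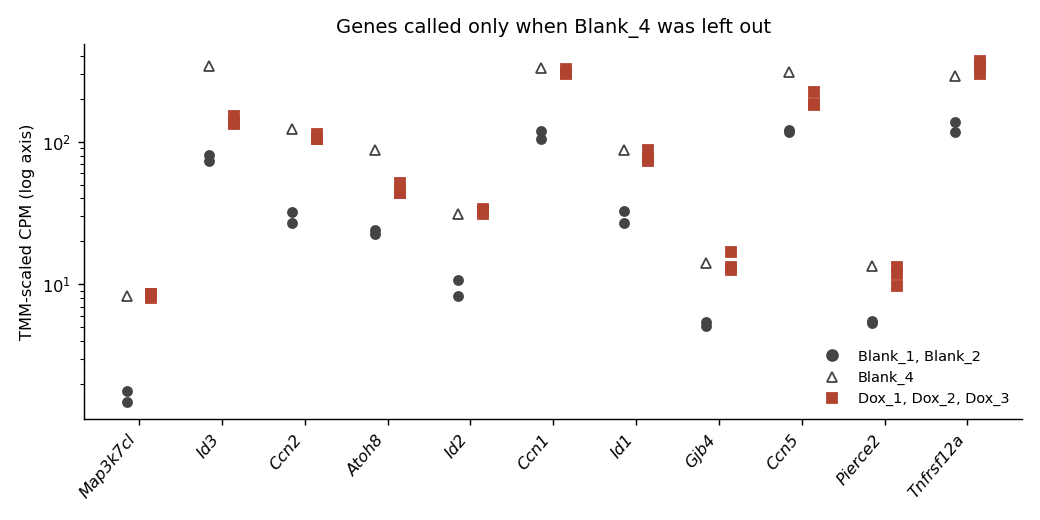
Scaled CPM (log axis) in each library for 11 genes called only when Blank_4 was left out; circles are Blank_1 and Blank_2, triangles Blank_4, squares the Dox libraries. Blank_4 lies above Blank_1 and Blank_2 for each of the 11, which the way they were chosen favoured.

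Gene length and level moved with the calls. In the shortest quartile of tested genes (243 to 2860 bases) 6.75% were higher and 18.2% lower in Dox, and in the longest (6962 bases and over) 12.3% and 5.68%. The quartile medians of the log2 change went from -0.08 to 0.19, and from -0.05 to 0.07 without Blank_4. By level, 29.4% of the top 20% (from 78.6 CPM) were lower and 11.7% higher, and in the lowest 20% 0.598% and 2.06%. Against the median of tested genes of similar length (length deciles), the list medians were -0.40 for lysosomal genes, -0.36 for ribosomal proteins, 0.38 for mitosis, 0.22 for chaperones, 0.49 for ERK feedback genes, 0.19 for tRNA synthetases and -0.18 for the TCA cycle and oxidative phosphorylation, each with the sign of its plain median. In 13 of the 60 lists the sign of the median turned, for example from 0.04 to -0.16 for ion channels, from 0.07 to -0.09 for Notch and Hedgehog genes and from -0.03 to 0.03 for glutathione enzymes. Sequencing depth, deeper in Dox, cannot be told apart from the treatment here.

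**Figure D5:**
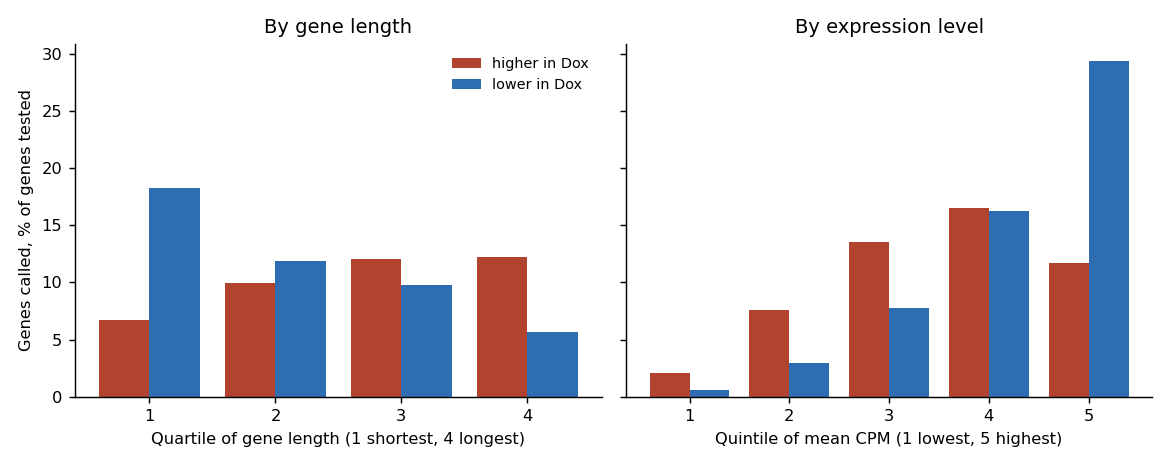
Share of tested genes called higher or lower in Dox, by quartile of gene length (left) and by quintile of mean CPM (right). Lower calls fall from 18.2% to 5.68% with length and rise from 0.598% to 29.4% with level.

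Doxorubicin was also set beside the other inducer. Dox against H2O2 had 13.1% of genes called (6.73% higher, 6.33% lower), and because it shares the Dox libraries with the main comparison the values are given side by side without an overlap. Sprr1a was 6.10 against Blank and 2.87 against H2O2 on the log2 scale, Robo3 6.35 and 2.72, Mt1 -2.25 and -2.03, Vegfb -1.47 and -1.54, and Pdk4 2.26 and 1.92, all called in both. Others were not called against H2O2: Plaur (0.02, edgeR adjusted p = 0.972), Akr1b3 (-0.01, 0.983), Hmox1 (-0.09, 0.624), Atf3 (-0.32, 0.324) and Maff (-0.36, 0.285).

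The comparison of D_I with B_I puts doxorubicin against no doxorubicin in the presence of isoliensinine and shares no library with Dox against Blank. It had 18.8% of genes called (9.41% higher, 9.41% lower). On the first principal component, the axis along which the libraries differed most, B_I_3 (-61.3) lay near Blank_4 (-69.7). B_I_1 and B_I_2 lay at -1.17 and -36.2, and Blank_1 and Blank_2 at -5.96 and -14.1. Both control groups thus held a library shifted the same way. Without B_I_3 the comparison of D_I with B_I had 2021 calls in place of 2518, and the values below are with B_I_3 and Blank_4 in. Of the calls in Dox against Blank 1775 were also called there in the same direction (61.3% of the Dox calls and 70.5% of the D_I calls), and 1 in the opposite direction. That gene is Egr1, which fell against Blank (-0.50) and rose in D_I (0.52, edgeR adjusted p = 0.00337). Mt1 (-1.63), Gstm1 (-1.67), Sprr1a (5.68), Ces2e (4.21) and Hspa5 (1.05) were called in the same direction. Of the tRNA synthetases 0 were higher and 3 lower in D_I, with Tars at 0.21 (edgeR adjusted p = 0.435), and of the lysosomal genes 5 were higher and 15 lower. Mitosis genes were 29 higher and 1 lower, and ribosomal proteins 0 and 39. A test of the difference between both doxorubicin effects (an interaction contrast in edgeR) called 0 of 13375 genes, with 522 at an unadjusted p under 0.05. The smallest adjusted p of that edgeR contrast, 0.0625, was that of Egr1 (log2 difference -1.02), above the threshold for a call. The differences in list counts are therefore not shown to be differences in effect.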

How the data were processed

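Poly-A-selected RNA of 18 libraries of MOVAS cells was sequenced, 3 in each of 6 groups. The submitters' processing notes name fastp 0.22.0, HISAT2 2.1.0 and HTSeq 0.9.1, while genome build and strand setting are not stated there or in the labels. The authors deposited read counts per gene and FPKM values for 21959 genes, per the file headers. The FPKM values equal the counts divided by gene length and the library's total (100% within 1e-06). Of all counts, 0.0187% belonged to 51 genes without a symbol, which kept their identifiers.

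Genes kept by edgeR's filterByExpr in all 18 libraries (13375) were fitted with trimmed-mean scaling and the robust quasi-likelihood test (R 4.3.3, edgeR 4.0.16), with p-values adjusted over all tested genes by Benjamini-Hochberg and calls at 0.05. The other groups entered the fit to estimate the spread. DESeq2 1.42.0, limma 3.58.1 on log2(FPKM + 1) and log2(FPKM + 0.1) with a filter of 1 FPKM, other scalings and filters, fits of the 6 libraries alone and fits without each library were alternatives. The median standard error of a log2 change was 0.229, so the typical 95% half-width was 0.477. On simulated counts edgeR called 47.8% of 67 genes with 2-fold and 71.2% of 66 genes with 4-fold changes for Dox against Blank. Among those over 5 CPM the shares were 74.4% and 100%. The simulated counts held no library set apart as Blank_4 was.

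The members and gene lists (60 pathway, 8 marker and 3 set-aside lists, with 3063 of 3067 symbols matched) were chosen with earlier results of these data known. Named genes were the 12 largest rises and falls over 5 FPKM, and in each pathway list up to 3 genes in the more common direction and 2 in the other over 1 FPKM. All had to be called with and without Blank_4, with groups that do not overlap, and 28 further genes were fixed whatever they did. Genes outside this rule (Acta2, Tagln, Adgre1, Itgam, Ctsa, Id1, Id2, Id3) were added after their values were seen. Promoter windows came from RefSeq (GRCm38.p6) for 10595 tested genes, and gene coordinates are those of the deposited table. The results of some genes are not reported here.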

Additional observations from a re-analysis of the deposited data

How the results depend on the processing

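For Dox against Blank, 2896 calls became 1722 at an adjusted p under 0.01 and 620 over 2-fold. They ranged from 1876 (without Dox_3) to 2869 when each library was left out, from 2067 (the 6 libraries alone) to 3675 (limma on log2(FPKM + 1)) in the other fits, were 3286 by DESeq2 and 2973 without Blank_4 and B_I_3. Dox against H2O2 gave 845 (without Dox_3) to 1741 calls when each library was left out, including 983 without Dox_1 and 1080 without H2O2_3, and D_I against B_I gave 1615 (without D_I_1) to 2545, including 1658 without D_I_2. Of 278 called named genes 230 were called in all 16 alternatives and 0 reversed. Uncalled genes changed sign: Top2b was -0.323 without Blank_4 and B_I_3, and -0.326 (without Blank_4), -0.116 (without Dox_1), -0.0237 (without Dox_3) to 0.477 (without Blank_1) when each library was left out; Cbr1 was 0.0665 on log2(FPKM + 1), 0.0792 on log2(FPKM + 0.1), and -0.21 (without Dox_2) to 0.0043 (without Blank_1); Ncl was -0.153 (without Blank_4) to 0.321 (without Dox_2), and -0.15 without Blank_4 and B_I_3. The cause was not tested. Depth limits low genes: the lowest 20% by level had 2.06% higher and 0.598% lower calls.

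Dox and Blank share only the replicate numbers 1 and 2, and the deviations of same-numbered libraries correlated at 0.136 and -0.188. Pairs of libraries with different numbers ran from -0.173 to 0.265, so these values cannot show whether the numbers pair the samples. With the replicate number as a block, 2428 genes were called (1182 higher, 1246 lower) in place of 2896. There were 2317 calls in place of 1746 for Dox against H2O2 and 3120 in place of 2518 for D_I against B_I. Top2b was -0.187 and Ncl -0.0765 with the block. The calls of Abcb1b and Mmp2 were lost under the block.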
